A study of Drosophila melanogaster with 3 samples.

Results

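Binding summits of a GFP-tagged Fruitless protein that lay at the promoter of exactly 1 protein-coding gene were examined in whole Drosophila melanogaster larvae. A summit counted when it lay within 500 bp of an annotated transcription start site (TSS) of 1 protein-coding gene and of no other on chromosomes 2L, 2R, 3L, 3R, 4 or X. Of the 8996 summits in the list the authors kept after a reproducibility threshold across replicates (the thresholded list), 2392 met this rule, or 26.6% (95% Wilson interval 25.7 to 27.5). They are called single-gene promoter summits, and 1854 genes had at least 1 of them. Within the thresholded list the rule used position alone, so signal, replicate presence and sequence were not used to choose among its summits. The list itself coincides with a cut on signal, since its 8996 summits are the 8996 of highest signal value in the list of pooled reads. The flies were of the strain fru-MiMIC-GFP, in which an exon encoding eGFP was put into a fru intron and the gene makes a GFP fusion from its own promoters. Chromatin of wandering larvae, the last larval stage before pupation, with males and females pooled, was sonicated to 200 to 800 bp and precipitated with an anti-GFP antibody (chromatin immunoprecipitation and sequencing, ChIP-seq). There were 3 biological replicates in 1 group and no other condition, so replicates carry the error and other summits serve for comparison. All tissues of the larva are mixed, so the cells a summit came from are unknown, and binding in few cells and weak binding in many cannot be told apart. A control experiment named in the labels was not analysed here.

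The fru gene encodes transcription factors with a BTB domain, through which such proteins pair, and zinc fingers, through which they meet DNA. Its male-specific proteins are best known for the neural circuits of courtship, and other fru products are made in both sexes and serve in development. A promoter is the stretch around a TSS where RNA polymerase is loaded. In flies it can carry short words such as the TATA box and initiator, common at regulated genes, or the DNA replication-related element (DRE) and motif 1, common at genes used by most cells. GAGA factor, itself a BTB protein, binds repeats of GA and keeps many promoters open. Many fly genes have several TSSs, and neighbours often start back to back close together, which the rule of exactly 1 gene leaves out.

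The windows printed here are the 61 bases centred on the summit, read in the gene's direction from 5′ to 3′ on dm6. The first set shows some of the strongest single-gene promoter summits, to let their differences be seen. Capitals mark any of 13 searched words on either strand, and lower case marks all else.
sea (chr3R:11562665-11562725, minus strand): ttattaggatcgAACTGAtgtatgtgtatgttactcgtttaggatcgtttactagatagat
asl (chr3R:5606573-5606633, minus strand): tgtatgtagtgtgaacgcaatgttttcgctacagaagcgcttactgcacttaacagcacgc
Svil (chr3L:2466746-2466806, plus strand): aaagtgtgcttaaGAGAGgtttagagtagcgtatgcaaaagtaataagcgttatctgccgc
Ugalt (chrX:2703855-2703915, minus strand): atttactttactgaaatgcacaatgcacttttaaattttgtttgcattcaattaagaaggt
CG14100 (chr3L:19590592-19590652, minus strand): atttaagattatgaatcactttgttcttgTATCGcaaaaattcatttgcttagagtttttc
CG42495 (chr3L:18667276-18667336, plus strand): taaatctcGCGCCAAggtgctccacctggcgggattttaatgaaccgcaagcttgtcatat
Hsp27 (chr3L:9383889-9383949, plus strand): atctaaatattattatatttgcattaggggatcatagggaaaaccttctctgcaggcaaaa
ph-p (chrX:2137268-2137328, minus strand): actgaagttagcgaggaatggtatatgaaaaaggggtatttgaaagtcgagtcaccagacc
Rtnl1 (chr2L:4997724-4997784, minus strand): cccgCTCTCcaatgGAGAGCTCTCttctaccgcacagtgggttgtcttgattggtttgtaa
The next set shows strong summits that hold 4 of the words, as examples of windows with a word. These summits lie 39 bp (CG5346), 78 bp (sgl), 299 bp (CG3009) and 169 bp (SLC5A11) upstream of the TSS. The windows are centred there and not on the TSS, so a word in them does not define the type of promoter. CG5346 carries the DRE (TATCGATA) and a further CGATA, sgl carries motif 1 (GGTCACAC), CG3009 carries the E-box CAGCTG, and SLC5A11 carries an AP-1 word (TGACTCA or its reverse complement) beside TATAAA and TCAGTT.
CG5346 (chr3R:22528672-22528732, minus strand): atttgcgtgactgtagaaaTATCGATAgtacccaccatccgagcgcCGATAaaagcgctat
sgl (chr3L:6964806-6964866, minus strand): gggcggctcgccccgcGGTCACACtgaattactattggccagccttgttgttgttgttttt
CG3009 (chrX:4666969-4667029, minus strand): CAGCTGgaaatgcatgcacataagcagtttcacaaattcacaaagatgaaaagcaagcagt
SLC5A11 (chr2L:8205271-8205331, minus strand): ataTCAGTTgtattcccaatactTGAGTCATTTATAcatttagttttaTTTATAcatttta
The strongest summits did not share 1 searched word. In the first set asl, Ugalt, Hsp27 and ph-p held none of the 13 words in capitals, Svil and Rtnl1 held GAGAG, sea held the initiator word TCAGTT in reverse, CG14100 held CGATA in reverse and CG42495 held the E2F word TTGGCGC in reverse.

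Single-gene promoter summits made up a similar share of each replicate's own strongest regions. Among the 8996 regions of highest signal value in each replicate's list, 2306 (25.6%) in replicate 1, 2740 (30.5%) in replicate 2 and 2320 (25.8%) in replicate 3 met the rule, a mean of 27.3% ± 2.74 (SD, n = 3). Replicate 2 was the highest of the 3. Relative to the sequence that the rule can reach, 13348409 bases or 9.97% of the 6 chromosomes, there were 179 single-gene promoter summits per Mb, against 54.8 other summits per Mb of the remaining sequence. By chromosome the density per Mb reached was 166 on 2L, 182 on 2R, 180 on 3L, 167 on 3R, 112 on chromosome 4 and 209 on X. The value of chromosome 4 rests on 12 summits. The signal value is the authors' score and has no fixed unit, and the lists give no read counts, so depth is unknown.

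Single-gene promoter summits spanned the whole range of signal. Their median signal value was 204 (quartiles 140 and 362, highest 15085), against 260 at the 937 promoter summits of several genes, and all 6604 other summits had quartiles of 138 and 331. The strongest 10% of the thresholded list held 298 of them (12.5%), against 14.6% of the promoter summits of several genes and 9.12% of all other summits. Within 50 bp of the summit the median GC content was 38.6%, against 42.6% in windows centred 500 bp away. All other summits had a median GC of 32.7%. Regions narrower than the usual 460 bp made up 29.8% of them and 36.1% of the other regions.

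Presence in the replicates was scored as a summit of the replicate's 8996 strongest regions within 100 bp. Of the single-gene promoter summits 1358 (56.8%) were present in all 3 replicates, against 3857 of the other summits (58.4%), and 58.0% of all thresholded summits were. Another 45 were present in none. Replicates 1, 2 and 3 held 74.2%, 83.1% and 80.7% of the single-gene promoter summits (79.3% ± 4.61, SD, n = 3), against 79.7%, 76.1% and 84.3% of the other summits (80.0% ± 4.13). The difference was -5.53, 7.04 and -3.60 percentage points, positive in replicate 2 alone, with a mean of -0.700 ± 6.77 (SD, n = 3). An exact two-sided sign-flip permutation test over the 3 replicates gave p = 1.00, and a design of 3 replicates cannot go below 0.25. These tests measure only the spread between these 3 samples.

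Signal was compared by rank within each replicate's list. Only summits with a match within 100 bp in the replicate's whole list could be ranked. These were 89.4%, 94.9% and 94.5% of the single-gene promoter summits in replicates 1, 2 and 3. The median rank percentile of single-gene promoter summits lay 0.558, 1.69 and -0.413 points above that of all other summits in replicates 1, 2 and 3, a mean of 0.611 ± 1.05 (SD, n = 3; exact permutation p = 0.50). Against the promoter summits of several genes the difference was -4.47, -3.06 and -3.84 points, a mean of -3.79 ± 0.708 (SD, n = 3). It was negative in all 3 replicates, and its exact permutation p of 0.25, the smallest the design allows, became 0.900 after Benjamini-Hochberg adjustment over 6 tests. Presence against that group differed by -8.61, 2.00 and -4.01 points (mean -3.54 ± 5.32, SD, n = 3; exact permutation p = 0.50). Against the 1802 summits between 500 and 2000 bp from a TSS, presence differed by -6.09, 5.42 and -2.79 points (mean -1.16 ± 5.93; exact permutation p = 0.750, n = 3). The rank difference against those summits was -0.387, 0.393 and -1.03 points (exact permutation p = 0.750, n = 3). None of the 6 tests passed after adjustment.

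The summits lay mostly just upstream of the TSS. The median position relative to the nearest TSS of the gene was -107 bp, with quartiles at -233 and 15.2 bp. There were 1732 summits upstream (72.4%), 657 downstream (27.5%) and 3 at the first base. Per kb of sequence that the rule can reach, density was highest at 0.403 summits in the 50 bp bin that starts 200 bp upstream. It was 0.106 in the outermost upstream bin and between 0.0385 and 0.0477 beyond 200 bp downstream. The distance from a pooled summit to the matching replicate summit had a median of 20, 19.0 and 12 bp in replicates 1, 2 and 3. Matches were limited to the distance used above to score presence, so larger distances could not arise. Summits without a match were left out. These medians therefore cannot be weighed against the distance to the TSS.

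**Figure D1:**
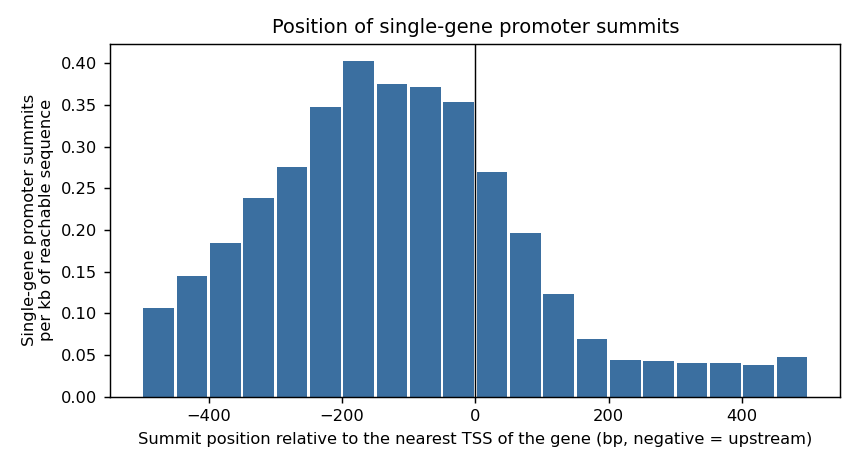
Density of single-gene promoter summits (per kb of sequence that the rule can reach) in 50 bp bins of distance to the nearest TSS of the gene, upstream on the left of the line at 0. Bars are highest from 200 bp upstream to the TSS and lowest beyond 200 bp downstream.

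The same position held in the replicates with some spread. Their own summits that met the rule had median positions of -113, -70.0 and -125 bp in replicates 1, 2 and 3 (mean -103 ± 28.9 bp, SD, n = 3). The upstream share was 75.5%, 67.2% and 74.4% (72.4% ± 4.54). Replicate 2, which held the most such summits, also had them nearest to the TSS.

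Strong summits were more often upstream than weak ones and lay farther from the TSS, though not in even steps down the list. In the strongest 10% of the thresholded list 84.9% of the single-gene promoter summits were upstream, and in the next 10% the share was 83.3% with a median distance from the TSS, without regard to side, of 189 bp. In the weakest 10% of the list 64.4% were upstream and the median distance was 132 bp. Presence in all 3 replicates was 99.0% in the strongest 10% and 0.901% in the weakest, against 98.0% and 1.33% of the other summits there. No test was made of these shares, since summits of 1 list are not replicates. In the decile with signal values from 148, 37.1% of the single-gene promoter summits and 48.2% of the other summits were in all 3 replicates, the widest gap among the 10 deciles.

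**Figure D2:**
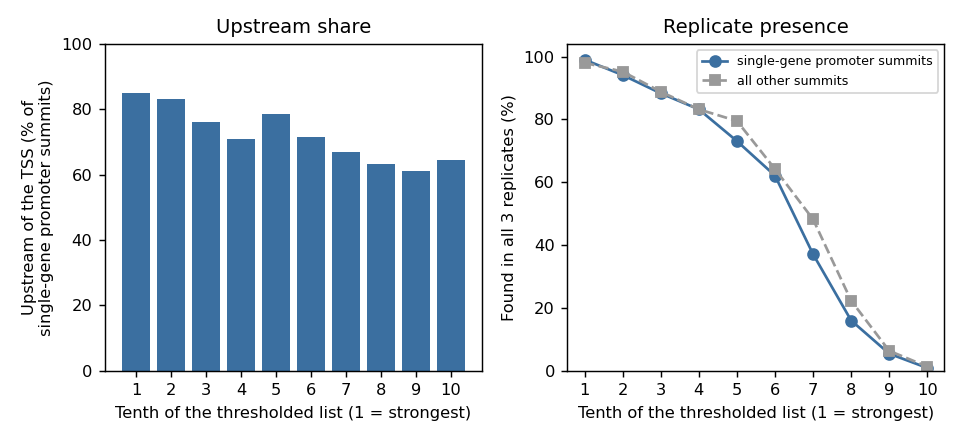
Deciles of the thresholded list by signal value, the strongest on the left. Left, the share of single-gene promoter summits upstream of the TSS (%), 84.9% in the first decile and 64.4% in the last. Right, the share found in all 3 replicates (%), for single-gene promoter summits (circles) and all other summits (squares), both near 100% at first and near 0 at the end.

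More than one kind of start was bound. The only TSS of its gene was the nearest for 889 summits (37.2%), the most upstream of several TSSs for 599 (25%) and a later TSS for 904 (37.8%). Median signal values were 204, 194 and 210 in these classes, and 57.6%, 55.9% and 56.5% of the summits were in all 3 replicates. Single-gene promoter summits fell between genes in 928 cases (38.8%), in an intron in 785 (32.8%), in a 5′ UTR in 558 (23.3%), in another exon in 57 (2.38%), in a 3′ UTR in 42 (1.76%) and in coding sequence in 22 (0.920%). All other summits were in introns in 58.3% of cases and in a 5′ UTR in 4.44%. Another 226 single-gene promoter summits (9.45%) lay inside the span of a further protein-coding gene, among them the strongest.

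Of the 13945 protein-coding genes, 13.3% had a single-gene promoter summit, or 13.8% of the 13470 genes that the rule can reach. These genes were longer, with a median of 5929 bp against 1948 bp for reachable genes without one, and had 2.14 TSSs on average against 1.30. More TSSs give the rule more sequence to meet. There was 1 such summit at 1442 genes, 2 at 322, 3 at 63, 4 at 20, 5 at 5 and 6 at 2. The genes with most were Rtnl1, which encodes a reticulon of the endoplasmic reticulum (6 summits, 7 TSSs), Ptpmeg2, a tyrosine phosphatase gene (6 summits, 6 TSSs), and Svil (5 summits, 16 TSSs). They were followed by fs(1)h, a BET-family gene (5 summits, 5 TSSs), and SNF4Agamma, which encodes a subunit of the AMP-activated kinase (5 summits, 11 TSSs). At Rtnl1 the signal values ran from 135 to 2883 and the positions from -46 to -438 bp. At Svil they ran from 169 to 6759.

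The strongest single-gene promoter summit was also the strongest of the whole list and of each replicate. It lay 399 bp upstream of a later TSS of sea, the gene of the mitochondrial citrate carrier (FBgn0037912; dm6, chromosome 3R, region 11561834 to 11563275, summit 11562695, intronic), with a signal value of 15085. Its signal value was 3547, 5163 and 6436 in replicates 1, 2 and 3, first place each time. The second lay 60 bp upstream of the only TSS of asl, which encodes the centriole duplication protein Asterless (FBgn0261004; 3R, region 5606120 to 5607164, summit 5606603, between genes). It had a signal value of 12186 and the second place in every replicate. The third lay 85 bp upstream of a later TSS of Svil, the fly supervillin gene of the actin cortex (FBgn0266696; 3L, region 2466424 to 2467256, summit 2466776, intronic), at 6759 and in places 6, 3 and 3.

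Below these, signal values fell off steadily. Ugalt, the gene of the Golgi UDP-galactose transporter, had 5149 at 33 bp upstream, in places 4, 9 and 6 of the replicates. CG14100 had 4281 at 98 bp upstream, CG42495 had 3967 at 55 bp upstream and CG1888 had 3952 at 239 bp upstream. The gene larp, which encodes a La-related RNA-binding protein, had 3274 at 325 bp upstream. PNPase, which encodes the mitochondrial polynucleotide phosphorylase, had 3226 and was the sole member of the 20 strongest with its summit downstream, at 77 bp. Hsp27, a small heat-shock gene, had 3170 at 144 bp upstream, and Sox14, an ecdysone-induced HMG-box factor gene, had 3039 at 220 bp upstream. The Polycomb gene ph-p had 2965 at 443 bp upstream of a later TSS, and mRpL41, a mitochondrial ribosomal protein gene, had 2911 at 147 bp upstream. The rest of the 20 were CG14441, Rtnl1, CG18549, Gapdh2 (a glycolytic enzyme gene), scf, CG13921 and CG15771, from 3021 to 2467. All 20 were present in all 3 replicates, none below place 79 in any of them, and 19 of 20 lay upstream with a median of -139 bp. GAGAG was within 50 bp of 4 of the 20 and the DRE of 0.

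**Figure D3:**
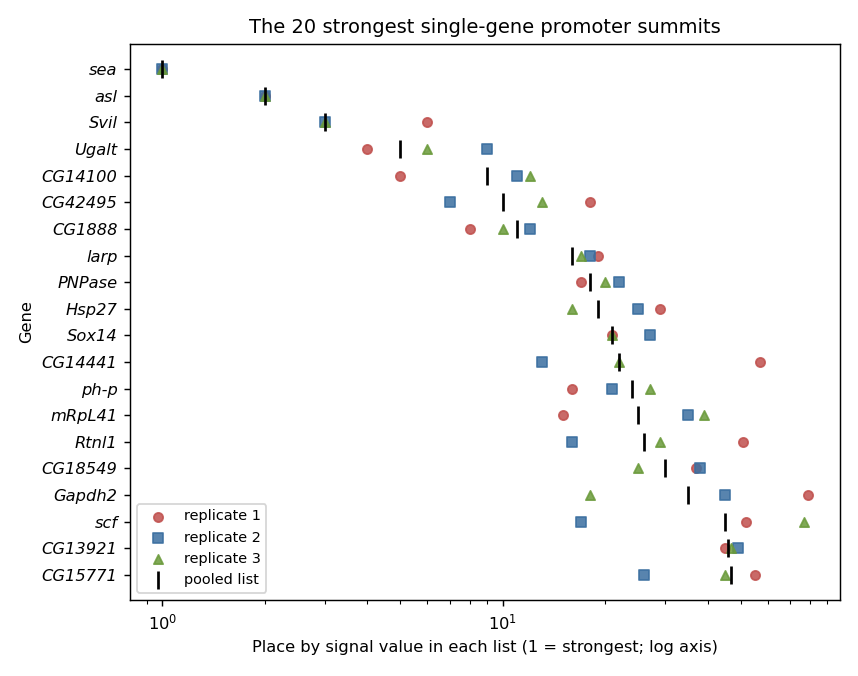
Place by signal value (1 is strongest, log axis) of the 20 strongest single-gene promoter summits in replicates 1, 2 and 3 and in the pooled list, by gene with the strongest at the top. The symbols of sea and asl coincide at places 1 and 2, and place 79 of replicate 1, at Gapdh2, is the farthest to the right.

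The tagged gene itself had 4 single-gene promoter summits. The strongest lay 438 bp upstream of a later TSS of fru, in an intron, with a signal value of 370 and place 1972 in the thresholded list. It was in places 1829, 2003 and 2257 of replicates 1, 2 and 3. The other fru summits had signal values of 179 (333 bp upstream), 147 (53 bp downstream) and 111 (63 bp upstream). The summit with 179 had no match in the list of replicate 2, and the weakest was in places 17679 and 9075 of replicates 1 and 2, outside their 8996 strongest regions. The summits with 370 and 147 were present in all 3 replicates. The fru summits were thus well below the strongest summits in signal.

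Gene lists differed in how many of their genes carried a single-gene promoter summit, read against 13.3% of all protein-coding genes. The 3 lists with the highest shares were transcription factors with a BTB domain (9 of 18 genes, 50%), developmental signalling (32 of 71, 45.1%) and the ecdysone response (11 of 26, 42.3%). Heat-shock proteins (9 of 26, 34.6%) and cytoplasmic ribosomal proteins (29 of 86, 33.7%) came next, followed by Polycomb and Trithorax genes (9 of 36, 25%). No test was made of any list, and the lists were chosen with earlier results of these data known. In the replicates' own regions the BTB list had 9, 11 and 9 genes, developmental signalling 29, 39 and 30, and the ecdysone response 12, 18 and 13, highest in replicate 2 each time. The order of the lists depended on the distance: cytoplasmic ribosomal proteins had 48.8% with 250 bp, above developmental signalling (43.7%) and the ecdysone response (42.3%), and 20.9% with 1000 bp. With replicate 2 left out and summits required in both others, 9.31% of all genes had a single-gene promoter summit. Developmental signalling then had 29.6%, heat-shock proteins 19.2% and Polycomb and Trithorax genes 13.9%.

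Among the BTB genes the strongest summits were at lola (signal value 996, 328 bp upstream), which encodes many zinc-finger isoforms of axon guidance, and at Trl (621, 125 bp downstream), which encodes GAGA factor. The partner gene of GAGA factor, lolal, had 507 at 59 bp downstream. The list also holds fru itself. Of the 9 BTB genes, 8 had a summit present in all 3 replicates.

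In developmental signalling the strongest summits were at sgg, which encodes the GSK3 kinase of the Wingless pathway (1384, 215 bp upstream), at gro, the Groucho corepressor gene (1114, 159 bp upstream), and at N, which encodes the Notch receptor (985, 162 bp upstream). The median position of the strongest summit per gene was -151 bp, and 20 of the 32 genes had it in all 3 replicates. In the ecdysone list Sox14 led, followed by E23, the gene of an ecdysone-inducible ABC transporter (1177, 216 bp upstream), and Eip74EF, an early ETS factor gene (1025, 165 bp upstream). The median signal value of the strongest summit per gene was 733 in the ecdysone list, against 230 over all genes with such a summit.

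The heat-shock genes Hsp27, Hsp83 (869, also upstream) and Hsp26 (864, 157 bp upstream) had the strongest summits of their list. The Polycomb and Trithorax list was led by ph-p, fs(1)h (726, 56 bp downstream) and Trl. Among cytoplasmic ribosomal proteins RpL23A (565, 75 bp upstream), RpL24 (432, 31 bp upstream) and RpL22 (413, 83 bp upstream) led. The ribosomal summits lay nearer the TSS, with a median of -37.0 bp against -112 bp over all genes, and 24 of the 29 genes had one in all 3 replicates.

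Unlike cytoplasmic ribosomal proteins, 6 other lists of housekeeping genes had shares below that of all genes under the rule of exactly 1 gene. Membrane traffic had 8 of 82 genes (9.76%; led by Rab5 at 746), Mediator and general transcription factors 4 of 50 (8.00%; Taf4 at 728) and proteasome subunits 2 of 48 (4.17%; Rpn11 at 270). Mitochondrial ribosomal proteins had 3 of 73 (4.11%), aminoacyl-tRNA synthetases 1 of 33 (3.03%; AlaRS at 256) and oxidative phosphorylation 2 of 84 (2.38%; ND-B22 at 148 and SdhD at 123). Near the share of all genes, cell cycle and replication had 7 of 51 (13.7%; Dp at 1006, CycE at 313, E2f1 at 243) and centriole genes 3 of 24 (12.5%; asl, Plp at 238, Grip91 at 114). In the replicates' own regions the cell cycle list had 12, 13 and 6 genes, lowest in replicate 3. With any thresholded summit within 500 bp of a TSS counted, the cell cycle and centriole lists each had 33.3%, against 24.6% of all genes.

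The rule of exactly 1 gene bears on these housekeeping counts. With any thresholded summit within 500 bp of a TSS counted, membrane traffic had 34.1%, Mediator and general transcription factors 32.0% and aminoacyl-tRNA synthetases 30.3%. Those shares lay above the 24.6% of all genes. Proteasome subunits (12 of 48 genes) were close to it and oxidative phosphorylation (22.6%) was below. On the same count, 34 of the 73 mitochondrial ribosomal genes (46.6%) had a promoter summit, against 3436 of all protein-coding genes (24.6%). The single-gene kind accounted for 3 of those 34 genes (8.82%), against 54.0% over all genes, 49.2% for cytoplasmic ribosomal proteins, 82.1% for developmental signalling, 84.6% for the ecdysone response and 90% for BTB genes. The rule could reach 40.5% of the sequence around TSSs of mitochondrial ribosomal genes, 64.5% for cytoplasmic ribosomal genes, 85.2% for BTB genes and 74.6% over all genes. Per kb of sequence reached there were 0.101 single-gene promoter summits at mitochondrial ribosomal genes, against 0.179 over all genes. Developmental signalling had 0.503, cytoplasmic ribosomal genes 0.498, Polycomb and Trithorax genes 0.479 and BTB genes 0.470. Heat-shock genes had 0.360 and the ecdysone response 0.355, so the order of the lists on this scale was not that of their shares. Mitochondrial ribosomal genes lay below the value of all genes on that scale too. With a distance of 250 bp their share was 11%, against 12.8% of all genes.

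Among lists of differentiated tissues, the shares ran from under 1% to that of all genes. Cuticle proteins had 1 of 123 genes (0.813%; Cpr12A at 127) and chemosensory receptors with odorant-binding proteins 3 of 230 (1.30%; Obp83g at 540, Obp99b at 124 and Gr77a at 112). Digestive enzymes had 3 of 39 (7.69%; Mal-A5 at 995, zetaTry at 154 and kappaTry at 119). Larval glue and storage proteins had 3 of 24 (12.5%; Sgs1 at 225, Sgs5 at 217 and Lsp1gamma at 130). Pan-neural and synaptic genes had 4 of 30 (13.3%), led by elav, the pan-neuronal RNA-binding protein gene (1359, 260 bp upstream), with Csp at 196 and futsch at 178. The rule could reach from 60.0% (glue and storage proteins) to 95.9% (cuticle proteins) of the sequence around the TSSs of these 5 lists. Per kb of sequence reached, pan-neural and synaptic genes had 0.0734 summits and glue and storage proteins 0.205, against 0.179 over all genes. With any thresholded summit within 500 bp counted, these 2 lists had 13.3% and 12.5%, against 24.6% of all genes.

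**Figure D4:**
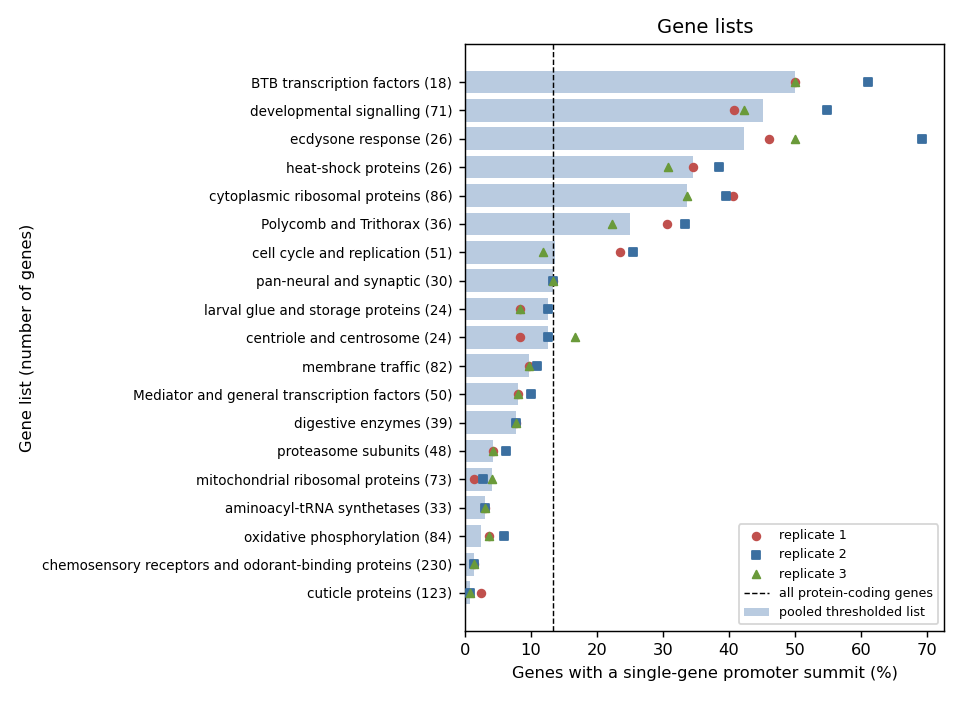
Share of the genes of each list with a single-gene promoter summit (%), with the number of genes in parentheses, for the pooled list and the 3 replicates. The dashed line is the share over all protein-coding genes, 13.3%; in the pooled list BTB factors, developmental signalling and the ecdysone response have 42.3% to 50%, cuticle genes 0.813% and chemosensory genes 1.30%, and replicates differ within a list.

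Of the 13 words searched within 50 bp on either strand, 7 had a higher share at single-gene promoter summits than in windows centred 500 bp to each side. All shares here are descriptions without a test. The DRE, TATCGATA, was under 47 summits (1.96%, 95% Wilson interval 1.48 to 2.60), against 0.230% in the flanks and 1.21% of all thresholded summits. It was under 5.34% of the promoter summits of several genes and 0.939% of all other summits, and 4.48% of windows centred on the 19252 TSS positions of protein-coding genes held it. In the replicates' own single-gene summits the DRE share was 2.78%, 2.26% and 1.47% (2.17% ± 0.660, SD, n = 3). Motif 1, GGTCACAC, was under 35 summits (1.46%), against 0.314% in the flanks, 0.856% of all thresholded summits, 2.35% of promoter summits of several genes and 4.68% of TSS windows. With a promoter distance of 250 bp the share of single-gene promoter summits was 3.44% for the DRE and 2.36% for motif 1. That set is not a part of the 500 bp set. It also takes in summits that count as promoter summits of several genes at 500 bp, where both words had higher shares. The word CGATA, bound by the insulator protein BEAF-32 and held inside the DRE, was under 397 summits (16.6%), against 12% in the flanks, 27.5% of the promoter summits of several genes and 14.0% of all thresholded summits.

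TATAAA was under 396 single-gene promoter summits (16.6%), against 12.4% in the flanks, 20.2% of all other summits and 19.2% of all thresholded summits. The GC content was also lower under the summits than in the flanks, and its part in the share of this AT-only word was not tested. Summits with TATAAA had a median position of -176 bp and those without it -95.0 bp. The initiator word TCAGTT was under 184 (7.69%), against 6.56% in the flanks, 15.5% of TSS windows and 6.94% of all thresholded summits. GAGAG was under 381 (15.9%), against 14.3% in the flanks, 7.58% of promoter summits of several genes, 11.4% of all other summits and 12.6% of all thresholded summits. TTGGCGC, an E2F word, was under 44 (1.84%), against 1.67% in the flanks and 1.28% of all thresholded summits.

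The other 6 words had a lower share under the summits than in the flanks. CAGCTG was under 4.81% of the single-gene promoter summits, against 4.89% in the flanks and 3.68% of all thresholded summits. The repeat CACACAC was under 96 (4.01%), against 6.04% in the flanks and 3.06% of all thresholded summits. Counted within 25 bp, it had 2.09% at the summit, 1.96% at 500 bp upstream and 4.10% at 500 bp downstream. Its lower share than the mean of both flanks thus came from the downstream side. AGGTCA, a word bound by nuclear receptors, was under 43 (1.80%), against 2.47% in the flanks and 1.85% of all thresholded summits. CACGTG was under 23 (0.962%), against 1.30% in the flanks and 0.789% of all thresholded summits. TGACTCA was under 20 (0.836%), against 1.32% in the flanks and 0.856% of all thresholded summits. CAGGTAG, the Zelda word of early embryos, was under 8 (0.334%), against 0.669% in the flanks and 0.422% of all thresholded summits.

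Words sorted by summit strength in different ways. Of the 239 strongest single-gene promoter summits 2 held the DRE, 1 held motif 1 and 26 held GAGAG, against 8, 5 and 51 of the 239 weakest. TATAAA went the other way, with 53 of the strongest and 33 of the weakest. Summits with GAGAG were in all 3 replicates in 46.5% of cases, against 58.7% of those without it.

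GAGAG was more frequent beside the summit than at it. Counted within 25 bp of each position, its share was 7.98% at the summit, 13.3% at 150 bp upstream, 13% at 150 bp downstream, and 6.98% and 6.61% at 600 bp upstream and downstream. The replicates' own summits had 6.46%, 10.5% and 8.53% at the summit (8.49% ± 2.01, SD, n = 3), against 12.6% ± 1.17 at 150 bp upstream and 11.9% ± 0.347 at 150 bp downstream. The dip was seen in each of the 3 replicates and was smallest in replicate 2. All other summits had 5.71% at the summit and 8.86% and 9.18% on the sides, so the dip was seen there as well. The DRE share was instead highest around the summit, at 0.878% there and between 0.669% and 1.09% within 100 bp. TATAAA and GC content were uneven between the sides. TATAAA had 8.78% at the summit, 8.28% at 500 bp upstream and 4.31% at 500 bp downstream, so that its excess over the mean of both flanks came from the downstream side. In the replicates' own summits it had 9.22% ± 1.70, against 7.87% ± 0.397 upstream and 4.54% ± 0.544 downstream (SD, n = 3). Mean GC content was 39.0% at the summit, 39.8% at 500 bp upstream and 44.9% at 500 bp downstream.

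**Figure D5:**
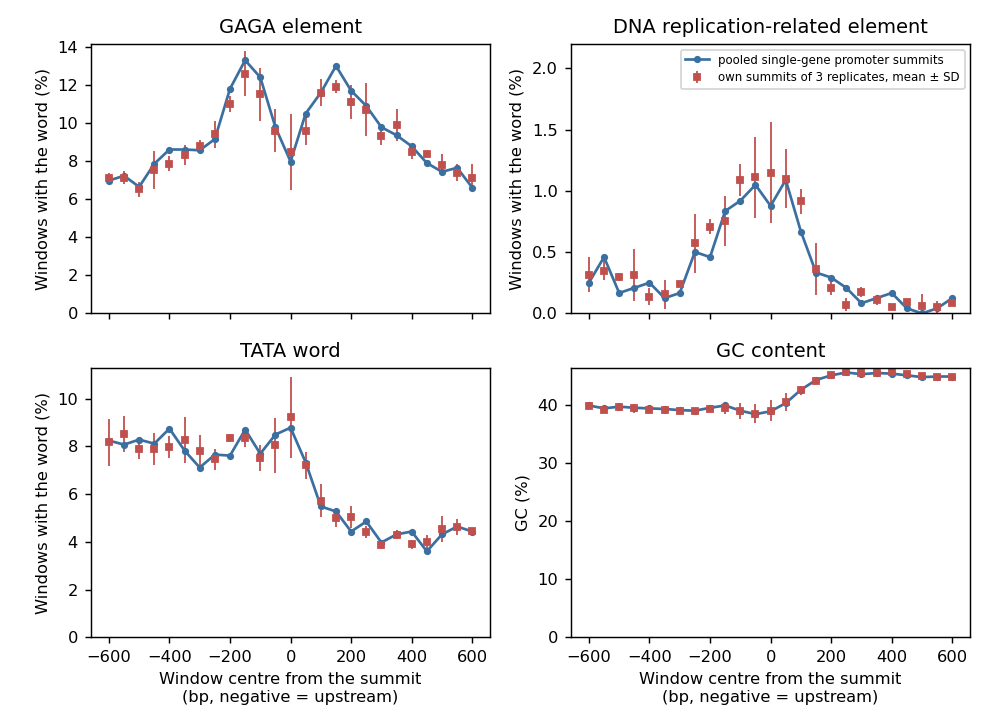
Share of single-gene promoter summits (%) with GAGAG, the DRE or TATAAA, and GC content (%), within 25 bp of positions from 600 bp upstream to 600 bp downstream of the summit. Circles are the pooled list and squares with bars the mean ± SD of the replicates' own summits (n = 3); GAGAG dips at the summit between shoulders near 150 bp, the DRE is raised around it, and TATAAA and GC content differ between the upstream and downstream sides.

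All 2080 words of 6 bases, reverse complements merged, were also ranked by the difference in share between summit and flank. The share was higher under the summit for 891 and lower for 1172. The ranking was led by AT-only words, with TTAAAA first (23.5% under the summit and 15.5% in the flanks). Among the 1222 words in at least 3% of the summits, ACACTG had the highest ratio to the flanks, 2.75. CGATAG at 2.61, AGTAAT at 1.95 and AGTAAC at 1.94 followed. CGATAG holds the searched word CGATA, and in the printed sgl window ACACTG overlaps the end of motif 1. CGATAG is thus not separate from the searched words. Motif 1 was under 35 single-gene promoter summits and ACACTG under 217, so most windows with ACACTG held no motif 1. How often ACACTG and motif 1 overlap was not counted. ACACTG and AAGTAA, the highest by difference with a G or C, were then described, a choice made after seeing the ranking. ACACTG was under 217 single-gene promoter summits (9.07%), against 3.30% in the flanks, 6.42% of all other summits and 7.13% of all thresholded summits. It was under 10.2% of the promoter summits of several genes and in 9.68% of TSS windows, both above its share at single-gene promoter summits. Its share was 9.71%, 9.53% and 7.89% in the replicates (9.04% ± 1.00, SD, n = 3). It was under 8 of the 239 strongest, 31 of the 239 weakest and 0 of the 20 strongest. AAGTAA was under 310 (13%), against 7.65% in the flanks, 13.4% of all other summits, 6.63% of TSS windows and 13.3% of all thresholded summits. It was under 35 of the 239 strongest, 19 of the 239 weakest and 4 of the 20 strongest, which are those of Svil, Ugalt, CG42495 and scf.

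At the edge of the rule the last summits inside lay at Gs2 (500 bp from the TSS, signal value 158), ru (500 bp, 117) and Axud1 (499 bp, 117). The first outside were at CG32512 (501 bp, 794), CG17896 (502 bp, 1338) and Synd (502 bp, 186).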

How the data were processed

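The authors deposited lists of regions with a summit and a signal value, a score without a fixed unit made from ChIP and control alignments, per the notes that come with the samples. The sources used here name no aligner, no peak caller and no threshold of the irreproducible discovery rate. Each replicate list and the list of pooled reads hold 30000 regions, and the thresholded list, derived from them by the authors, holds 8996. Signal values were compared within 1 list only. Lists on dm3 were not used.

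TSSs came from the Ensembl BDGP6 annotation of dm6 and sequences from the RefSeq genome of the same chromosome lengths. Positions are 1-based. Each summit was assigned to protein-coding genes with a TSS within 500 bp. Words were counted once per window, on either strand, and flank shares are means of both sides. Replicate differences were tested by exact two-sided sign-flip permutation with Benjamini-Hochberg adjustment over 6 tests. Shares of summits carry no test, and their Wilson intervals cover the sampling of summits only. The steps were tested on simulated data and run in Python 3.11.15 with numpy 2.4.6, pandas 2.3.3 and scipy 1.17.1.

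The summits, the 19 gene lists and the 13 words were chosen with earlier results of these data known. Genes named are those of the 20 strongest summits, up to 3 genes per list with the strongest summits, the 5 genes with most summits, the strongest holder of a word, those at the edge of 500 bp, and fru. Windows were printed where no UTR base is annotated. Alternatives were other distances, the stronger 50% of the list, fewer replicates, other ways to match replicates, and other word windows and flanks.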

Additional observations from a re-analysis of the deposited data

How the results depend on the processing

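The number of single-gene promoter summits was 2392, 2036 with a distance of 250 bp, 2833 with 1000 bp and 2232 with summits near a noncoding TSS left out. It was 1217 in the stronger 50% of the list, which holds fewer summits by construction. With 1 replicate left out at a time and summits required in both others, 1507 to 1636 remained, fewer because of that requirement. The number of words above their flanks, 7 of 13, stayed between 5 and 9, and the number of lists above the share of all genes, 8 of 19, between 6 and 8. The shares behind these counts moved more. Over 1.5 times from the reported share were 2 of the 13 words and 4 of the 19 lists with 250 bp, 0 words and 7 lists with 1000 bp, 1 word and 14 lists in the stronger 50%, and 0 to 1 words and 3 to 10 lists with 1 replicate left out. In the stronger 50% the share of all genes was itself 7.6%, and with 1 replicate left out 9.31% to 9.98%, against 13.3% as reported. All 13 words moved over 1.5 times with the wider word window, which holds more sequence. The presence difference from other summits, -0.700 points, ran from -4.57 to 1.72 with 1 replicate left out (1.72 without replicate 1, 0.751 without replicate 3). It was 2.22 with regions matched by 50% overlap, and the cause of these changes of sign was not tested. The rank difference, 0.611, stayed positive, from 0.0725 to 1.12 with 1 replicate left out. Limiting TSSs to protein-coding transcripts changed nothing, since all transcripts of these genes carry that class. No paired analysis was possible because there is only 1 group of samples, with no other to pair it with, but the differences between kinds of summits were taken within each replicate. Depth limits are unknown, since the lists give no read counts.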

Other observations

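A TSS of a noncoding gene also lay within 500 bp of 160 single-gene promoter summits (6.69%), against 4.45% of all other summits. It was a TSS of an ncRNA gene for 144, of a tRNA gene for 11 and of a snoRNA gene for 6. Another 97 (4.06%) lay in a region listed with more than 1 summit, so that they share their region with a neighbour.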
